A study of Mus musculus with 14 samples.

Results

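The heterozygous livers of a Pkd1 littermate series were compared, gene by gene, with the midpoint between the WT and the homozygous livers, to find which genes depart from that level. The contrast used all 14 libraries of the series, chosen by genotype label alone: 4 Het libraries against the mean of the 6 WT and the 4 Homo libraries on the log2 scale. RNA of whole liver was sequenced from mice on normal chow, 1 library per labelled mouse. All 3 genotypes, WT, Pkd1 Het and Pkd1 Homo, are labelled as littermates and carry Cre in their label. Which Pkd1 allele and which Cre driver were used is not in the labels, nor are age, sex, litter and batch, so the liver cells in which the gene was changed cannot be named.

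Pkd1 encodes polycystin 1, a large membrane protein of the primary cilium that acts with the channel polycystin 2, and loss of either causes cysts in kidney and in the bile ducts of the liver. In a heterozygote each cell holds 1 copy of each allele. Where every copy gives its own share of transcript regardless of the other, the heterozygote lies at the arithmetic mean of the homozygotes. A contrast on log2 levels has the geometric mean as its midpoint, and the geometric mean of unequal levels always lies under the arithmetic one. Both midpoints are therefore given below for the genes on which the results turn. Levels are CPM, counts scaled to a common effective library size with TMM factors (trimmed mean of M-values), and WT is given by its lowest, median and highest library, Het and Homo by libraries 1 to 4 in order.

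WT libraries held 25238140 to 40925973 counts, Het libraries 22833853 to 26245475 and Homo libraries 18573739 to 28431875. Het minus the midpoint was -0.15 in log2 total count (exact permutation p = 0.377, two-sided) and -0.52 percentage points in the mitochondrial share of counts (exact permutation p = 0.195). The 12 hepatocyte markers, among them albumin and the apolipoproteins, summed to between 84136 and 110485 CPM in every library, and 4 of 12 pancreas and adipose markers passed the count filter, with sums from 17.3 to 25.8 CPM. A pair of Het libraries stood apart. Het 1 lay beyond the Homo mean for 10 of the 36 genes called between Homo and WT, against 0 for each of the other Het libraries. In Het 2 the median departure of the acute phase genes was 1.11 on the log2 scale, against 0.23, -0.04 and -0.04 in Het 1, Het 3 and Het 4.

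Pkd1 itself (ENSMUSG00000032855, chromosome 17) lay nearer WT than Homo in Het, without a departure from the midpoint past the threshold. Its level was 31.4, 35.2 and 37.7 CPM in WT, 31.6, 28.1, 32.6 and 36.7 CPM in Het and 23.1, 26.1, 25.5 and 26.4 CPM in Homo. All 4 Het libraries lay above all 4 Homo libraries, and 3 of the 4 lay within the WT range. With the WT mean set to 0 and the Homo mean to 1, Het stood at 0.27 (per library 0.34, 0.70, 0.23 and -0.20). The ratio of Het to the linear midpoint was 1.07 (95% interval 0.96 to 1.19), and against the log2 midpoint the difference was 0.12 (SE 0.0727, edgeR adjusted p = 0.992, exact permutation p = 0.413). That difference was 0.05 without Het 4 and 0.18 without Het 2. Its unadjusted edgeR p was 0.118. The permutation deals all libraries anew into groups taken as alike. Homo and WT differed for Pkd1 (edgeR adjusted p = 0.0246), so the permutation is no test of the midpoint alone. The table counts the gene as a whole, and any exons left in a deleted allele contribute to it.

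Tsc2, the neighbour of Pkd1 that encodes a subunit of the brake on mTORC1, was at 41.8, 47.2 and 50.9 CPM in WT, 42.4, 42.4, 44.9 and 45.5 CPM in Het and 37.1, 41.2, 41.2 and 41.6 CPM in Homo. Its ratio to the linear midpoint was 1.01 (95% interval 0.926 to 1.09, exact permutation p on log2 CPM 0.844). Pkd2, the gene of the channel partner, was at 12.8, 20.3 and 22.3 CPM in WT, 16.5, 13.3, 13.7 and 7.54 CPM in Het and 14.0, 23.4, 6.84 and 16.7 CPM in Homo. The Homo libraries spanned the whole Het range, and the ratio of 0.747 had an interval from 0.508 to 1.10 (exact permutation p = 0.218). Its log2 departure of -0.42 was -0.24 without Het 4.

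Of 16201 genes tested, 3 lay off the log2 midpoint at an edgeR adjusted p under 0.05 (0.0185% of genes tested), all 3 above it and 0 below. At an unadjusted p under 0.05 there were 827 genes (5.1%), 409 above (2.52%) and 418 below (2.58%). The fitted Het level lay above the log2 midpoint in 8186 genes (50.5%). Among the 753 tested genes of chromosome 17, which carries Pkd1, 45 had an unadjusted p under 0.05 (5.98%). The 3 called genes were Abca3, Glo1-ps and Gm10503. Each of them was also called between Homo and WT and had Het between the homozygous group means, so none was a gene in which Het stood outside both.

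Abca3 (ENSMUSG00000024130, chromosome 17), a transporter that loads lipid into lamellar bodies, was at 52.9, 57.8 and 60.4 CPM in WT, 140, 142, 138 and 137 CPM in Het and 207, 206, 209 and 218 CPM in Homo. The groups did not overlap, and the SD of the 4 Het libraries was 2.34 CPM. The log2 midpoint lay at 109 CPM and the linear one at 133 CPM. Against the first, Het was higher by 0.35 on the log2 scale (SE 0.0496, edgeR adjusted p = 0.0225), and against the second the ratio was 1.04 (95% interval 0.969 to 1.13, limma adjusted p = 0.976). The call against the log2 midpoint was lost with the library total alone (edgeR adjusted p = 0.353), without a low-count filter (0.0939), and without WT 2 (0.0563), WT 3 (0.0569), Het 1 (0.145), Het 2 (0.175), Het 3 (0.141), Het 4 (0.0959), Homo 1 (0.0832), Homo 2 (0.0926) or Homo 3 (0.0733). Over all alternatives its adjusted p ran from 1.86e-09 with DESeq2 to 0.9997 with WT and Homo pooled as 1 group, while leaving out any library kept the difference between 0.34 and 0.36.

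Glo1-ps (ENSMUSG00000075391), a processed copy of the glyoxalase gene Glo1, is on chromosome 2 in GENCODE M21. It had the smallest p of the contrast, and its counts cannot be separated with certainty from those of Glo1. The coding sequence of Glo1 and the copy, both 555 bases long, were aligned to show how little distinguishes them. They matched at 552 positions (99.46% identity), and the longest run without a difference was 330 bases. Counted from 1 at the start of the coding sequence, with the base of Glo1 written first, 1 of the 3 differences was T225C. The stretch around it, coding positions 195 to 255 from GENCODE M21 (GRCm38) on the coding strand 5′ to 3′, is shown because reads within the coding sequence must cross such a base to tell the genes apart. The untranslated regions were not compared. The differing base is in capitals.
Glo1: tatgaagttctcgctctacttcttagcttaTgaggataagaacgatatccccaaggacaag
Glo1-ps: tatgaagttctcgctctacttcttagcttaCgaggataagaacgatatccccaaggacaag

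Glo1-ps was at 0.341, 0.555 and 0.805 CPM in WT, 14.7, 6.46, 7.92 and 11.2 CPM in Het and 15.2, 18.1, 13.8 and 14.1 CPM in Homo. Every Het library lay above every WT library, and Het 1 lay inside the Homo range. Het was higher than the log2 midpoint of 2.94 CPM by 1.78 (log2, SE 0.19, edgeR adjusted p = 0.0021). The linear midpoint was 7.93 CPM, with 2 Het libraries above it and 2 below, and the ratio to it was 1.21 (95% interval 0.844 to 1.74, limma adjusted p = 0.98). Glo1 itself (ENSMUSG00000024026, chromosome 17), which detoxifies methylglyoxal, was at 159, 193 and 235 CPM in WT, 428, 264, 270 and 277 CPM in Het and 375, 435, 402 and 335 CPM in Homo. Its Het 1 library stood inside the Homo range and the other 3 lay between the groups. The departure of Glo1 from the log2 midpoint was 0.18 (SE 0.128, edgeR adjusted p = 0.995) and -0.02 without Het 1.

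Gm10503 (ENSMUSG00000117786, chromosome 17), which M21 classes as antisense, had 2 counts in total over the 6 WT libraries. It had 99, 47, 54 and 19 counts in Het and 152, 93, 114 and 74 in Homo, or 4.13, 2.14, 2.15 and 0.819 CPM and 5.02, 3.8, 4.31 and 4.06 CPM. The departure of 3.15 from the log2 midpoint (SE 0.404, edgeR adjusted p = 0.0101) depends on the prior count that stands in for the near-empty WT group and is no measure of size. With limma the adjusted p was 0.227 (range over alternatives 1.16e-06 to 0.9997). Against the linear midpoint of 2.15 CPM the Het mean was 2.31 CPM, and the fitted ratio, on log2 values with a prior count of 2, was 0.936 (95% interval 0.543 to 1.61). The use of strand in counting is not stated in the labels or processing notes. Whether reads of an antisense gene were told apart from those of its partner is therefore not known.

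**Figure D1:**
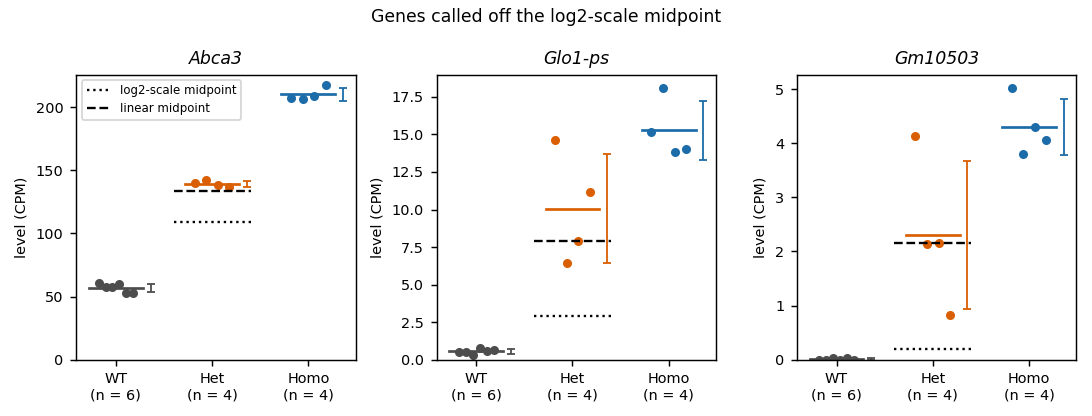
Levels in CPM (linear axes from 0) of the 3 genes called off the log2 midpoint, with 1 point per library, the mean as a line and its SD as a bar for WT (n = 6), Het (n = 4) and Homo (n = 4). Dotted lines mark the log2-scale midpoint and dashed lines the linear midpoint, and the Het mean lies nearer the dashed than the dotted line in each panel (139 against 133 CPM for Abca3, 10.0 against 7.93 CPM for Glo1-ps and 2.31 against 2.15 CPM for Gm10503).

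When the same contrast was taken against the linear midpoint, with limma on log2 CPM, 0 of 16201 genes passed (0%) and 850 had an unadjusted p under 0.05 (5.25%). With limma against the log2 midpoint 2 passed (0.0123%), Abca3 and Glo1-ps. DESeq2 called 16 against the log2 midpoint (0.0988%), 13 above and 3 below, including all 3 edgeR calls. Among the 16, Rnps1-ps, Atp6v0c-ps2 and Gm10499, named after their values were seen, also had WT at or near 0. Atp6v0c-ps2 was at 0, 0.0383 and 0.192 CPM in WT, 1.17, 1.05, 1.87 and 1.08 CPM in Het and 2.74, 2.70, 3.29 and 3.24 CPM in Homo. Its Het mean of 1.29 CPM lay above the log2 midpoint of 0.422 CPM and below the linear midpoint of 1.53 CPM. Rnps1-ps had the same order, with a Het mean of 1.49 CPM between midpoints of 0.384 and 1.67 CPM.

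**Figure D2:**
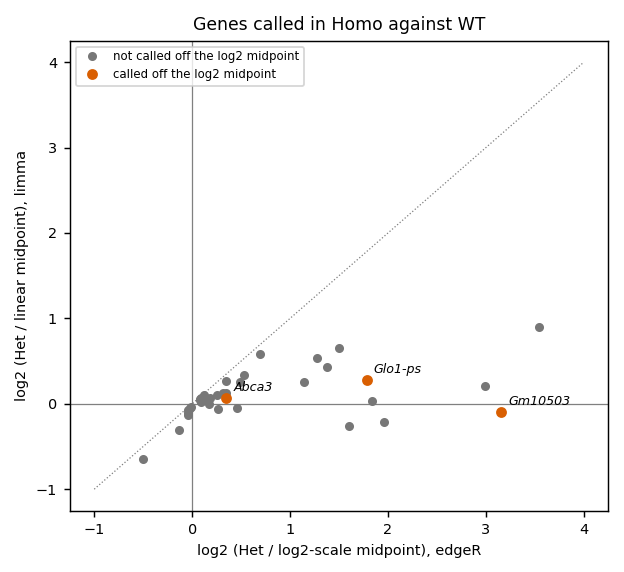
Each point is 1 of the 36 genes called between Homo and WT, with the log2 ratio of Het to the log2 midpoint (edgeR) on the horizontal axis and to the linear midpoint (limma) on the vertical axis, and the dotted line marks equal values. The 3 genes called off the log2 midpoint lie at 0.35, 1.78 and 3.15 horizontally and at 0.06, 0.28 and -0.10 vertically.

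The position of Het can be stated most directly for genes whose homozygous groups differ. In Homo against WT, 36 of 16201 genes passed (edgeR adjusted p under 0.05, 0.222%), and 28 of them were on chromosome 17. The contrast shares its WT and Homo libraries with the midpoint, so only the position of Het is described here, with no test of the set. On the linear scale, with WT at 0 and Homo at 1, the median position of Het was 0.54 (quartiles 0.44 and 0.61), and in 35 of 36 genes the Het mean lay between the groups. On the log2 scale the median position was 0.68, and 29 of the 36 genes lay above the log2 midpoint and 24 above the linear one. Over all 36 genes, those below included, the median log2 departure was 0.33 from the log2 midpoint and 0.06 from the linear one. Medians of single libraries were 0.64 in Het 1, 0.48 in Het 2, 0.49 in Het 3 and 0.44 in Het 4, and without Het 1 the median over genes was 0.47.

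Genes higher in Homo (26) had a median linear position of 0.58, or 0.47 without Het 1, and genes lower in Homo (10) one of 0.45, or 0.46 without Het 1. The widest disagreement between the scales was in the 8 called genes off chromosome 17 or without a place. Their median position was 0.46 on the linear and 0.75 on the log2 scale. Several of them are processed copies with almost no counts in WT, so a small linear change is a long step on the log2 scale. ENSMUSG00000121779, which has no symbol or place, went from 12.6 ± 2.66 CPM (WT) through 42.3 ± 2.23 CPM (Het) to 75.2 ± 3.53 CPM (Homo, SD, n = 6, 4 and 4). Its 4 Het libraries stood at 0.47, 0.46, 0.45 and 0.53 of the way.

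The 12 genes with the highest levels among the 36 were taken next, leaving out symbols of pseudogenes and unnamed models. Abca3 and Pkd1 are described above and Cyp4a12b below. The other 9 were near the linear midpoint, as was Abca3 at a ratio of 1.04 (95% interval 0.969 to 1.13). Tedc2, a component of the tubulin epsilon and delta complex at centrioles, was at 86.5, 92.8 and 104 CPM in WT, 53.3, 48.1, 56.3 and 64.2 CPM in Het and 15.9, 21.6, 24.9 and 28.8 CPM in Homo. The 3 groups were fully separated, and Het was at 0.955 of the linear midpoint (95% interval 0.797 to 1.14). Riok2, a kinase of small ribosomal subunit maturation, was at 22.8, 25.6 and 27.7 CPM in WT, 19, 21.1, 18.7 and 19.6 CPM in Het and 14.4, 12.5, 12.4 and 11.6 CPM in Homo. Again no group overlapped another, and the ratio was 1.03 (0.931 to 1.14). Gfer, a sulfhydryl oxidase of mitochondrial import, was at 22.8, 25 and 30.3 CPM in WT, 21.4, 19.6, 20.6 and 20.3 CPM in Het and 15.2, 17.6, 16.7 and 18.6 CPM in Homo, a ratio of 0.965 (0.865 to 1.08).

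Decr2, a peroxisomal reductase of unsaturated fatty acid oxidation, was at 99.3, 115 and 141 CPM in WT, 81.3, 106, 99.7 and 101 CPM in Het and 65.7, 61.0, 76.6 and 84.8 CPM in Homo (ratio 1.03, 0.887 to 1.19). Its Het 1 library fell inside the Homo range and the other 3 were above it. Of the remaining genes, Pgap6 had a ratio of 1.04 (0.874 to 1.23), Unkl of 1.01 (0.87 to 1.18), Btbd9 of 1.05 (0.935 to 1.17), Ermard of 0.949 (0.809 to 1.11) and Glo1 of 1.05 (0.869 to 1.27). Without Het 1 the log2 departure of Btbd9 went from 0.09 to -0.02 and that of Ermard from -0.04 to 0.03. All of these intervals include 1, so departures within them are not excluded.

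In 3 of the 36 genes Het differed from the linear midpoint at an unadjusted limma p under 0.05 (5.25% of all genes), and in each of the 3 the Het mean was nearer WT than Homo. Dynlt2a2, a dynein light chain gene on chromosome 17 named after its values were seen, was at 2.57, 3.07 and 3.55 CPM in WT, 2.17, 3.55, 3.46 and 3.92 CPM in Het and 7.10, 7.52, 6.05 and 7.41 CPM in Homo. Het overlapped WT and did not reach Homo, with a position of 0.05 (limma adjusted p = 0.938). Cyp4a12b, a male-biased cytochrome P450 on chromosome 4, was at 56.1, 75.2 and 84.7 CPM in WT, 54.3, 87.4, 90.1 and 106 CPM in Het and 33.3, 32.1, 33.0 and 49.8 CPM in Homo. Het 1 lay just under the WT range and the other 3 above it, a position of -0.29 (limma adjusted p = 0.938), and the division of reads with the near copy Cyp4a12a is uncertain. Gm13169, a processed pseudogene on chromosome 4 also named after its values were seen, had no count in any Homo library. Its Het libraries, at 0.793, 0.773, 0.478 and 0.56 CPM, lay inside the WT range of 0.327 to 0.938 CPM (position 0.02, limma adjusted p = 0.939).

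Read in order along chromosome 17, the 4 Het libraries did not behave alike. The 28 called genes were divided, after their values were seen, into 6 before Zfp943, 11 from Zfp943 up to Glo1, and 11 from Glo1 onward. In the first 6 the median position was 0.12 in Het 1, 0.42 in Het 2, 0.44 in Het 3 and 0.37 in Het 4. In the middle 11, which include Abca3 and Pkd1, it was 0.54, 0.56, 0.48 and 0.46. From Glo1 onward it was 1.21, 0.44, 0.50 and 0.41, and Het 1 exceeded the Homo mean in 7 of the 11. Het 2, Het 3 and Het 4 exceeded it in 0 of the 28 genes.

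At the near end, Dynlt1b, a dynein light chain, stood at 0.12 in Het 1 against 0.28, 0.28 and 0.50 in the others. Ermard stood at 0.02 against 0.52, 0.74 and 0.26. Riok2 did not follow this, at 0.50 in Het 1 against 0.34, 0.53 and 0.46. Gm6475, the gene nearest that end, went the other way, at 1.62 in Het 1 and 0.61, 0.35 and 0.51 elsewhere, on levels under 1 CPM in each group mean. At the far end, Btbd9, a BTB domain adaptor just before Glo1, was at 1.42 in Het 1 and 0.25, 0.48 and 0.55 in the rest. The ring finger gene Rnf39 was at 1.43 against 0.18, 0.51 and 0.41. Pla2g7, which encodes a phospholipase that degrades platelet-activating factor, was at 1.43 against 0.67, 0.82 and 0.33, and Rcan2, an inhibitor of calcineurin, at 1.21 against 0.80, 0.42 and 0.63.

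Het 1 was also the highest of the 4 Het libraries for the 3 class I histocompatibility genes of that end. H2-Bl was at 0.345, 1.27 and 1.54 CPM in WT, 12.9, 5.23, 8.28 and 6.98 CPM in Het and 11.1, 5.84, 9.15 and 15.4 CPM in Homo. All Het and Homo libraries lay above all WT libraries, and Het and Homo overlapped. Its ratio to the linear midpoint was 1.45 (95% interval 0.831 to 2.54), and its log2 departure of 1.27 missed the threshold (edgeR adjusted p = 0.565, DESeq2 adjusted p = 0.0137). H2-T24 stood at 1.16 in Het 1 against 0.21, 0.49 and 0.59, and H2-T10 at 0.62 against 0.28, 0.44 and 0.53. These genes are close relatives, so how reads divide among them is uncertain. Differences between single libraries of a group were not tested, and the cause of the Het 1 pattern was not tested.

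**Figure D3:**
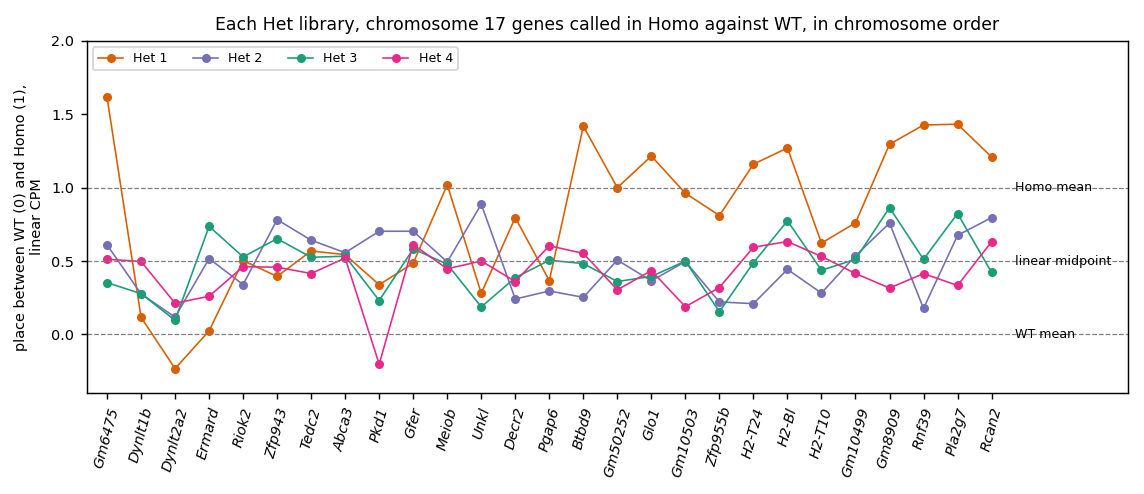
Linear position of each Het library between the WT mean (0) and the Homo mean (1) for the chromosome 17 genes called in Homo against WT, in chromosome order from left to right, 1 line per library and 1 gene not drawn. Het 1 has a median of 0.12 over the first 6 genes and 1.21 from Glo1 onward, while the medians of the other 3 libraries stay between 0.37 and 0.56 in all 3 stretches.

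With edgeR as fitted here, 0 genes passed with the Het mean outside both homozygous means. DESeq2 called 8 such genes (Col1a1, Col1a2, Aldh1a1, Mup14, Cyp4a12b, Tbx3, Iffo2 and the gene model Gm28438), and edgeR without a low-count filter called 2, Iffo2 and Mup8. The DESeq2 log2 departure of Gm28438 was -22.0, against -0.67 for Iffo2 and -0.64 for Tbx3, and it is not read as a size. All 4 Het libraries lay above the 10 others in 17 of 16201 genes (0.105%) and below them in 15 (0.0926%), 32 in all (0.198%). With the library total alone as scaling these counts were 11 and 38, so the split between higher and lower depends on the scaling, which moved the median of all genes by -0.04. The 7 further genes above, of which H2-Bl is given above, and the 10 below with the smallest p are described next with their values, leaving out genes whose symbol marks a pseudogene or an unnamed model and genes under a mean of 1 CPM. H2-Bl has no such symbol, but M21 classes it as a polymorphic pseudogene.

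Of these, the fibrillar collagens had the smallest p above the midpoint. Col1a2, 1 of the chains of type I collagen, was at 12.8, 15.8 and 16.7 CPM in WT, 20.5, 21.9, 22.8 and 19 CPM in Het and 17.5, 18.7, 15.5 and 15.5 CPM in Homo. All 4 Het libraries exceeded the 10 others, by 0.38 over the log2 midpoint (SE 0.0782, edgeR adjusted p = 0.427), a ratio of 1.3 to the linear one (95% interval 1.16 to 1.47). Col1a1, the partner chain, was at 11.2, 12.7 and 16.0 CPM in WT, 20.3, 21.9, 25 and 17.5 CPM in Het and 14.4, 17, 17.7 and 13.3 CPM in Homo (log2 0.55, SE 0.113, edgeR adjusted p = 0.427). Het 4 lay just inside the Homo range. DESeq2 called both (adjusted p = 0.0208 for Col1a2 and 0.0137 for Col1a1), and no other alternative did.

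Col3a1, the chain of type III collagen, taken from the collagen list, was at 41.8, 48.6 and 55.5 CPM in WT, 59.8, 61.6, 74.3 and 59.0 CPM in Het and 50.0, 56.8, 52.8 and 47.7 CPM in Homo (log2 0.34, edgeR adjusted p = 0.791, all 4 Het above the 10 others). Col5a2, named after its values were seen, was at 5.34, 5.46, 8.24 and 5.69 CPM in Het, above all WT and Homo libraries (4.29 to 5.18 CPM and 4.49 to 5.16 CPM). Of 19 tested stellate cell and collagen markers, which mark the matrix-producing cells of the liver, 13 lay above the midpoint, 5 at an unadjusted p under 0.05 (background above 2.52%), and 0 lay below at that p. Their median was 0.06, against 0.00 for all genes, and it was 0.10 without Het 2 and 0.01 with the library total alone, under which that of all genes was -0.04. The summed level of the 19 was 438 to 555 CPM in WT, 448 to 601 CPM in Het and 498 to 525 CPM in Homo (medians 478, 521 and 516). In bulk liver more cells of a type and more RNA per cell cannot be told apart.

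Other genes above were products of the hepatocyte. Aldh1a1, a retinaldehyde dehydrogenase, was at 370, 375 and 469 CPM in WT, 479, 447, 495 and 431 CPM in Het and 348, 304, 314 and 383 CPM in Homo. Het 1 and Het 3 exceeded all other libraries, and the ratio to the linear midpoint was 1.27 (95% interval 1.14 to 1.42, edgeR adjusted p = 0.565 and DESeq2 0.0206 against the log2 midpoint). Mup14, a major urinary protein that carries pheromones, was at 4182, 4865 and 7231 CPM in WT, 5949, 7234, 10269 and 8357 CPM in Het and 2640, 3989, 4056 and 5603 CPM in Homo (log2 0.78, SE 0.183, edgeR adjusted p = 0.631, DESeq2 0.0206). All 4 Het libraries were above all Homo libraries, and 3 were above all WT libraries. Mup8 (log2 1.65, edgeR adjusted p = 0.565) and Mup20, named after its values were seen (0.75, edgeR adjusted p = 0.779), lay on the same side, but these genes are near-identical copies and share reads. Mup8 was at 20.1, 16.7, 68.6 and 29.0 CPM in Het, its departure was 1.03 without Het 3, and it passed without a low-count filter (edgeR adjusted p = 0.0434).

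Cyp4a12b, whose levels are given above, had a log2 departure of 0.69 (SE 0.157, edgeR adjusted p = 0.565, DESeq2 0.0206), and like the major urinary proteins it is known as a male-biased liver gene. Of 16 tested male-biased genes 9 lay above the midpoint and 7 below, with a median of 0.11, or 0.01 without Het 2. At an unadjusted p under 0.05 with edgeR, 3 lay above (background above 2.52%) and 0 below. Moxd1, a monooxygenase gene named after its values were seen, varied widely within each group, at 0.215, 14.0 and 24.7 CPM in WT, 13.1, 45.4, 91.7 and 64.9 CPM in Het and 0.066, 3.96, 6.65 and 1.65 CPM in Homo (edgeR adjusted p = 0.779). Het 1 lay inside the WT range and the other 3 above it.

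Of the 10 genes below, the smallest p belonged to Iffo2, an orphan gene of the intermediate filament family. Iffo2 was at 23.0, 25.7 and 33.5 CPM in WT, 20.1, 15.7, 15.1 and 16.8 CPM in Het and 32.3, 25.7, 29.8 and 19.3 CPM in Homo (log2 -0.67, SE 0.131, edgeR adjusted p = 0.368). Het 1 alone exceeded a library of another group, Homo 4, and without Homo 4 the gene passed (edgeR adjusted p = 0.048), as it did with DESeq2 (0.00165) and without a low-count filter (0.0466). Over its 24 alternatives the adjusted p otherwise stayed above the threshold, up to 0.9998.

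Tbx3, a T-box factor that responds to Wnt signalling in hepatocytes around the central vein, was at 32.4, 45.4 and 52.8 CPM in WT, 34.2, 29.3, 24.4 and 24.3 CPM in Het and 46.8, 49.6, 49.9 and 31.1 CPM in Homo (log2 -0.64, SE 0.15, edgeR adjusted p = 0.631, DESeq2 0.0206). Het 1 overlapped WT and Homo, and the other 3 lay under both. Rnf43, a Wnt-responsive ubiquitin ligase named after its values were seen, was at 21.8, 25.4 and 34.8 CPM in WT, 26.5, 18.2, 17 and 18.8 CPM in Het and 29.3, 30.2, 35.7 and 23.4 CPM in Homo (edgeR adjusted p = 0.952). Here too Het 1 was the exception. Of 15 pericentral hepatocyte genes tested, 9 lay above the midpoint and 6 below, with a median of 0.02. At an unadjusted p under 0.05, 3 lay below (background below 2.58%) and 1 above (background above 2.52%).

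Eif2s3y, a Y-linked subunit of translation initiation factor 2, was at 33.3, 36.2 and 41 CPM in WT, 25.3, 25.9, 33.1 and 29.0 CPM in Het and 35.2, 36.4, 32.3 and 36.2 CPM in Homo (log2 -0.33, edgeR adjusted p = 0.631). Het 3 alone reached the Homo range. This Y-linked transcript was at 25.3 CPM or more in all 14 libraries, so each liver carried a Y chromosome, although sex is not in the labels. Ngrn, which acts in mitochondrial ribosome assembly, was at 9.39, 8.92, 8.8 and 8.66 CPM in Het against 10.4, 10.9 and 12.5 CPM for WT and 11.6, 10.1, 11.5 and 9.72 CPM in Homo. All 4 Het libraries lay under the 10 others (ratio to the linear midpoint 0.822, 95% interval 0.737 to 0.917, edgeR adjusted p = 0.791). Naa12 and Tab1, an adaptor of the kinase TAK1, were separated in the same way, with log2 departures of -0.22 and -0.64 (edgeR adjusted p = 0.779 for each).

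The rest of the 10 genes below were Albfm1, Tent5a, Eef2kmt and Rchy1. Their log2 departures were -0.45, -0.38, -0.49 and -0.28, and their edgeR adjusted p values ran from 0.634 to 0.868. Albfm1 is a member of the albumin family, Eef2kmt methylates elongation factor 2 and Rchy1 is a ubiquitin ligase of p53. In each of these 4 genes at least 2 Het libraries were under all 10 others. Angptl8, an inhibitor of lipoprotein lipase that is induced by feeding, was named after its values were seen. It was at 54.4, 61.2 and 75.2 CPM in WT, 36.3, 34.6, 14.5 and 54.5 CPM in Het and 136, 68.0, 45.9 and 116 CPM in Homo (log2 -1.10, SE 0.3, edgeR adjusted p = 0.952).

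**Figure D4:**
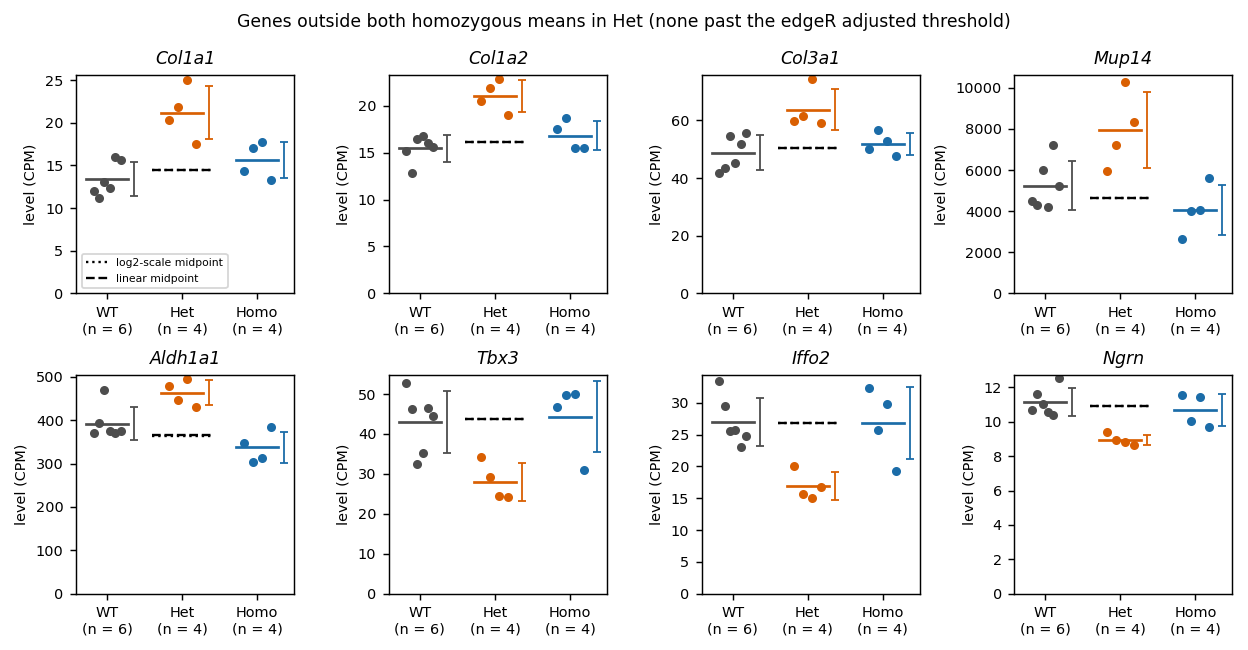
Levels in CPM (linear axes from 0) of 8 genes whose Het mean lies outside both homozygous means, 1 point per library with the mean as a line and the SD as a bar, and dashed lines for the linear midpoint of WT (n = 6) and Homo (n = 4). Het lies above the line for Col1a1, Col1a2, Col3a1, Mup14 and Aldh1a1 and below it for Tbx3, Iffo2 and Ngrn, and 0 of the 8 passed the adjusted threshold with edgeR, against 6 with DESeq2 (Col3a1 and Ngrn excepted).

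Lists of functionally related genes were then read for their side of the midpoint. With edgeR 0 members of the 32 lists passed, DESeq2 called 5 (Col1a1, Col1a2, Tbx3, Aldh1a1 and Cyp4a12b), and 50.5% of all genes lay above by edgeR. Cholesterol synthesis had 21 of 25 members above the midpoint, 6 of them at an unadjusted p under 0.05 (background above 2.52%), with a median of 0.21, or 0.12 without Het 2. Msmo1, a sterol demethylase, was at 77.5, 99.3 and 128 CPM in WT, 133, 174, 143 and 120 CPM in Het and 101, 130, 105 and 120 CPM in Homo (edgeR adjusted p = 0.961). Het 4 overlapped both groups, and the other 3 were above both.

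Sqle, the epoxidase that commits squalene to sterols, was at 48.0, 57.2 and 64.2 CPM in WT, 67.0, 99.6, 63.0 and 67.1 CPM in Het and 62.6, 64.0, 61.6 and 63.1 CPM in Homo (edgeR adjusted p = 0.973). Het 2 was far from the rest of its group, and the log2 departure of 0.32 was 0.15 without it. Dhcr7, the last reductase of the pathway, was at 56.7, 70.8 and 77.1 CPM in WT, 95.4, 98.6, 90.4 and 83.5 CPM in Het and 93.1, 93.1, 78.0 and 88.7 CPM in Homo. Het and Homo overlapped, and both lay above all WT libraries (log2 0.23 over the midpoint, edgeR adjusted p = 0.973).

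The acute phase list, hepatocyte proteins secreted in inflammation, had all 22 tested members above the midpoint, with a median of 0.40. Of the 22 members, 4 had an unadjusted p under 0.05 (background above 2.52%). Without Het 2 the median was 0.01. Saa1, a serum amyloid A gene named after its values were seen, was at 33.0, 203 and 1027 CPM in WT, 393, 2167, 140 and 291 CPM in Het and 65.1, 556, 1044 and 43.0 CPM in Homo. Each group held low and high livers, and the log2 departure was 1.02 (SE 0.878) with Het 2 and -0.43 without it. The metallothionein genes, which bind zinc and copper, followed the same library, Mt1 at 22.7, 298, 76.6 and 47.4 CPM and Mt2 at 2.59, 166, 22.1 and 14.3 CPM in Het. In WT the highest library was at 134 CPM for Mt1 and 87.8 CPM for Mt2, so high values were not limited to Het. Orm3, an orosomucoid, was at 1.63, 2.77, 2.39 and 0.603 CPM in Het against 0.209 to 1.72 CPM for WT and 0.297, 0.409, 0.605 and 0.659 CPM in Homo (edgeR adjusted p = 0.973).

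Neutrophil markers, of which 3 of 10 passed the count filter, lay above in 3 of 3 with a median of 0.98, or 0.07 without Het 2. Their summed level was 1.19 to 5.91 CPM in WT, 2.23 to 7.73 CPM in Het and 1.59 to 3.23 CPM in Homo, and the part of neutrophils in the acute phase values was not tested. Csf3r, the receptor of granulocyte colony-stimulating factor, was at 2.17, 3.28, 1.59 and 2.46 CPM in Het, against 0.844, 1.41 and 2.46 CPM for WT and 1.09, 2.82, 1.28 and 1.76 CPM in Homo. The groups overlapped.

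On the other side, 21 of 24 interferon response genes lay below the midpoint, 3 at an unadjusted p under 0.05 (background below 2.58%), with a median of -0.20, or -0.09 without Het 3. Oas1a, a sensor of double-stranded RNA, was at 1.91, 3.16 and 3.68 CPM in WT, 2.75, 2.41, 2.75 and 2.50 CPM in Het and 4.69, 5.23, 4.27 and 3.18 CPM in Homo (edgeR adjusted p = 0.973). Het lay within the WT range and under all Homo libraries. The antiviral GTPase gene Mx1 was at 0.626, 1.05, 1.08 and 0.905 CPM in Het against medians of 1.55 CPM for WT and 1.64 CPM in Homo.

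Genes of the ER unfolded protein response lay below in 19 of 20, 5 of them at an unadjusted p under 0.05 (background below 2.58%). Their median was -0.11 (-0.16 to -0.06 over single libraries left out). Single libraries were at a median of -0.03 in Het 1, 0.03 in Het 2, -0.26 in Het 3 and -0.27 in Het 4, so the position rested on the latter 2 libraries. Hspa5, the main chaperone of the ER and named after its values were seen, was at 523, 629 and 658 CPM in WT, 489, 556, 412 and 421 CPM in Het and 471, 485, 533 and 601 CPM in Homo (log2 -0.27, SE 0.0937, edgeR adjusted p = 0.973). Het 3 and Het 4 were under all 10 others.

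Ribosomal protein genes lay below in 66 of 76, 1 at an unadjusted p under 0.05 (background below 2.58%). Their median was -0.04 (-0.06 without Het 1 and -0.03 without Homo 3). With the library total alone it was -0.09, and that of all genes was -0.04. Lipogenesis genes lay below in 16 of 19 with a median of -0.11 (library medians -0.05, -0.28, -0.47 and 0.08, and -0.05 without Het 2 and -0.23 without Het 4). Female-biased genes had 4 of 6 below and a median of -0.78, which was 0.22 without Homo 4 and -1.69 without Het 3. Homo 4 was the highest of its group for Cyp2a4, Acot3 and Cux2, while its Y-linked Eif2s3y was at 36.2 CPM, inside the WT range. Cyp2a4 ranged from 0.316 to 9.67 CPM in WT (median 0.679), so values near the 9.99 CPM of Homo 4 were not limited to it. Acot3 reached 2.76 CPM in WT and was at 8.78 CPM in Homo 4. Cux2, a factor of female liver, was at 0.319, 0.545 and 1.10 CPM in WT, 0.543, 0.409, 0.796 and 0.689 CPM in Het and 0.594, 0.735, 0.378 and 8.67 CPM in Homo.

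Lists tied to polycystin biology lay near the midpoint. Of 20 genes of polycystic disease and the cilium 12 lay above and 8 below, with a median of 0.02 (-0.02 to 0.06 over single libraries left out). At an unadjusted p under 0.05, 2 lay above (background above 2.52%) and 0 below. Arl13b, a GTPase of the ciliary membrane, was at 4.78, 7.45 and 12.7 CPM in WT, 10.6, 15.7, 10.8 and 10.1 CPM in Het and 6.97, 6.13, 8.05 and 6.42 CPM in Homo (log2 0.64, SE 0.196, edgeR adjusted p = 0.952). Het lay above all Homo libraries and overlapped WT except in Het 2. Invs, the gene of inversin at the cilium base, was at 18.6, 17.7, 19.4 and 19.1 CPM in Het, against 15.2, 16.5 and 18.5 CPM for WT and 15.5, 13.0, 15.6 and 19.3 CPM in Homo (edgeR adjusted p = 0.973). Ift20, of the transport machinery of the cilium, was at 41.6, 39.9, 37.3 and 42.7 CPM in Het and overlapped both groups (log2 -0.11, edgeR adjusted p = 0.992).

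The mTORC1 pathway, which the product of Tsc2 restrains, had 14 of 25 genes above and a median of 0.01 (-0.01 to 0.05 over single libraries left out). Wdr59, a subunit of the GATOR2 complex that passes amino acid signals to mTORC1, was at 9.27, 9.97 and 10.6 CPM in WT, 13.2, 14.1, 13.4 and 11.8 CPM in Het and 10.8, 12.7, 11.5 and 11.1 CPM in Homo (log2 0.29, SE 0.0694, edgeR adjusted p = 0.634). Het exceeded all WT libraries, and Het 4 lay inside the Homo range. Deptor, an inhibitor of mTOR, had a ratio to the linear midpoint of 0.929 (95% interval 0.863 to 0.999) and Rragd, a Rag GTPase, of 1.34 (0.96 to 1.87), with edgeR adjusted p of 0.988 and 0.992.

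The circadian clock list had 5 of 18 genes above and a median of -0.06 (-0.12 without Het 3 and -0.02 without Homo 4), and the time of day at collection is not in the labels. Bhlhe40, a clock repressor, was at 94.5, 101, 81.1 and 128 CPM in Het, against 103, 134 and 142 CPM for WT and 208, 112, 116 and 129 CPM in Homo (log2 -0.40, edgeR adjusted p = 0.973). Nr1d1, a repressor whose level swings over the day, ranged from 18.1 to 74.9 CPM in WT, 14.3 to 37.7 CPM in Het and 12.4 to 110 CPM in Homo. Nfil3, also of the list, ranged from 7.12 to 16.9, 8.47 to 13.8 and 5.10 to 10.8 CPM in the same order. The groups overlapped for all 3 genes.

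Of the other cell types, cholangiocyte markers (11 of 15 tested) had a median of 0.06, Kupffer cell markers (19) of 0.01, sinusoidal endothelium (18) of 0.02, lymphocytes (12 of 19) of -0.09 and erythroid cells (7 of 11) of 0.18. The summed cholangiocyte level was 104 to 558 CPM in WT, 175 to 481 CPM in Het and 135 to 574 CPM in Homo, a wide and overlapping range. Summed lymphocyte markers were at 35.3 to 42.4 CPM in WT, 43.2 to 46.4 CPM in Het and 44.2 to 52.8 CPM in Homo. For lymphocytes Het and Homo overlapped, and both lay above all WT libraries. The sums of Kupffer cells, sinusoidal endothelium and erythroid cells overlapped between the groups. Without Het 1 the cholangiocyte median was 0.20 and the lymphocyte median -0.28, without Homo 1 the former was -0.02, and without Het 3 the erythroid median was 0.10. Hepatocyte markers had a median of 0.00, with 6 of 12 above.

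**Figure D5:**
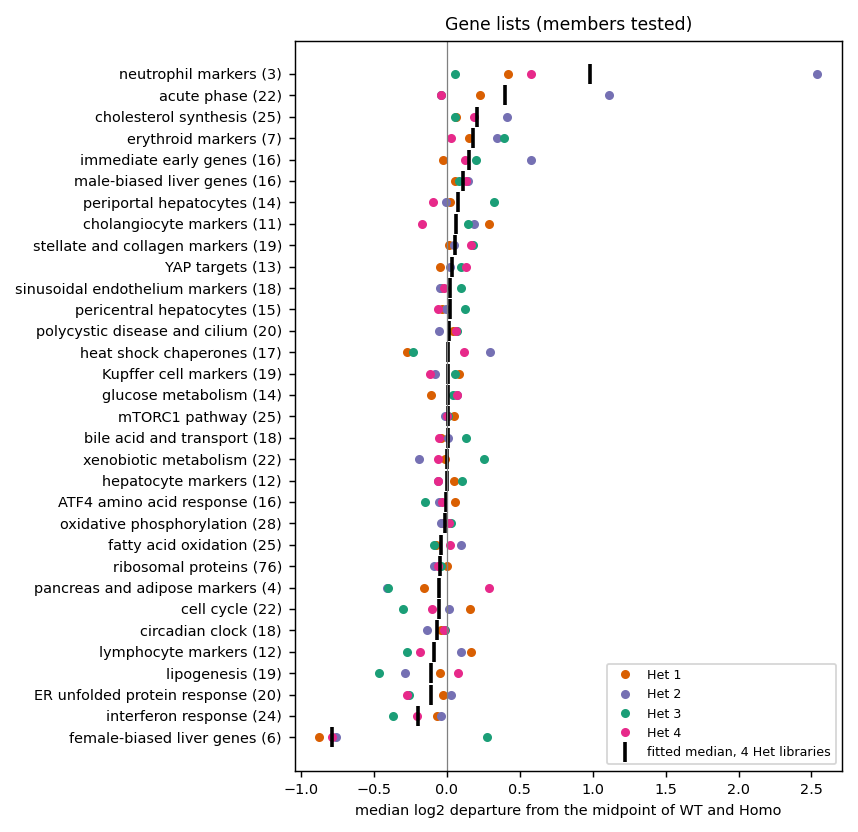
Median log2 departure from the midpoint of WT and Homo for each of the 32 gene lists, with the number of tested members in brackets, as 1 point per Het library and a bar for the fitted median of the 4. Het 2 stands alone for neutrophil markers (2.54) and the acute phase (1.11), and it is above the other 3 libraries in both.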

How the data were processed

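RNA-seq of 14 mouse livers (WT 6, Het 4, Homo 4) was grouped by the genotype label. The deposited table holds estimated counts for 57180 genes, made by the authors with tools named STAR and Salmon on GRCm39, per the submitters' processing notes; versions, annotation, strand use and each tool's role are not given in the sources used. Counts were rounded, filtered with filterByExpr (count minimum 10, total minimum 15), which left 16201 genes, scaled by TMM and fitted over all 14 libraries with the quasi-likelihood test of edgeR 4.0.16 in R 4.3.3. The contrast was Het minus the mean of WT and Homo on the log2 scale of the fitted group means. The SE of an edgeR departure is its absolute value over the square root of the F statistic. It is no fitted standard error and means little where a group is near 0 counts. The linear midpoint was tested with limma 3.58.1 on log2 CPM (prior count 2) by the delta method. P-values are two-sided, adjusted with Benjamini-Hochberg over all genes, with 0.05 as the threshold. The 95% intervals are for single genes and are not adjusted for the number or choice of genes. Single values were tested by exact permutation over all 210210 allocations of the 14 libraries to groups of 6, 4 and 4. Its null is that all groups are alike, so a difference between WT and Homo widens its spread.

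The fits were also run on simulated counts, with outcomes not reported here, and no result above rests on them. Alternatives were DESeq2 1.42.0, other filters, scalings and spreads, pooled homozygotes, a replicate block and leaving out each library. Libraries are 1 per labelled mouse, and no pair agreed within sampling noise (smallest chi-square per degree of freedom 25.0 over 91 pairs). Named were Pkd1, Tsc2, Pkd2, every called gene, the smallest p in each direction up to 10 genes, the 12 highest genes called in Homo against WT, and 3 members of 9 lists; beyond the called genes, symbols of pseudogenes and unnamed models were left out. Some named items are not reported here. Other names were chosen after their values were seen. The contrast, members and lists were chosen with earlier results of these data known. Gene order and Glo1 sequences came from GENCODE M21 (GRCm38), so no coordinates are given.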

Additional observations from a re-analysis of the deposited data

Results flagged for a closer look

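Among 207 groups of 4 or 6 libraries (69 named genes), 29 held a library far from the others of its group by Dixon's test. Chance flags about 1 in 20 groups, and values of the same library are not independent. Homo 4 accounted for 7: Cyp4a12b at 49.8, Tbx3 at 31.1, Acot3 at 8.78, Cux2 at 8.67, Mt1 at 65.5, Mt2 at 14 and Col5a2 at 5.16 CPM. Het 2 accounted for 5, with Sqle at 99.6, Arl13b at 15.7, Mt2 at 166, Saa1 at 2167 and Saa2 at 2633 CPM. WT 5 also accounted for 5, with Nfil3 at 16.9, Mt1 at 134, Mt2 at 87.8, Saa1 at 1027 and Saa2 at 1083 CPM.

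In WT 1 there were 4, Pkd2 at 12.8, Naa12 at 52.2, Nr1d1 at 74.9 and Angptl8 at 75.2 CPM. Het 3 had 3, Acot3 at 1.79, Atp6v0c-ps2 at 1.87 and Col5a2 at 8.24 CPM. In WT 4 the values were H2-Bl at 0.345 and Atp6v0c-ps2 at 0.192 CPM. Single ones were Tsc2 at 37.1 CPM in Homo 1, Aldh1a1 at 469 CPM in WT 3 and Glo1 at 428 CPM in Het 1, where the other Het libraries of Glo1 ran from 264 to 277 CPM.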

How the results depend on the processing

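For Het against the midpoint, 3 genes passed. The count was 16 with DESeq2 (13 above and 3 below), 5 without a low-count filter, 1 without chromosome 17 genes, 0 against the linear midpoint, 0 with WT and Homo pooled, and 2 to 4 when a library was left out. For Homo against WT it was 36, against 62 with DESeq2, 5 without chromosome 17 genes and 23 to 40 when a library was left out. With the replicate number as a block the counts were 0 and 19, but the numbers did not pair the libraries (correlation over 0.1 in 2 of 12 same-number pairs, from -0.09 to 0.15). The median position of Het was 0.54, or 0.68 on the log2 scale and 0.47 to 0.56 when a Het library was left out, a check chosen after seeing the data. The 17 and 15 genes with Het above or below all others became 11 and 38 with the library total alone.

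Of the single-gene departures, 1578 values kept direction and call, 17 gained and 20 lost a call, and 20 changed sign. Against the linear midpoint these were Gm10503 (-0.096), Tedc2 (-0.066), Rnps1-ps (-0.22) and Atp6v0c-ps2 (-0.26). With WT and Homo pooled they were Tsc2 (-0.014), Tedc2 (-0.23), Decr2 (-0.031), Pgap6 (-0.033), Riok2 (-0.057) and Unkl (-0.052). When a library was left out, the values ran from -0.0196 (without Het 1) to 0.25 for Glo1, from -0.018 (without Het 1) to 0.15 for Btbd9, and from -0.12 to 0.033 (without Het 1) for Ermard. They ran from -0.43 (without Het 2) to 1.49 for Saa1, from -0.63 (without Het 2) to 1.77 for Saa2, and from -1.22 to 0.032 (without Homo 4) for Cux2. Tsc2 ran from -0.0095 (without Homo 1, with -0.0063 without Het 4 and -0.0056 without WT 1) to 0.028 and was -0.031 with the library total alone. The cause was not tested.

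Groups of 4 and 6 libraries limit what the contrast can show, and genes near 0 counts in WT have log2 departures that depend on the prior count.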
